A study of Mus musculus with 12 samples.

Results

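The medial layer was set against the endothelial layer of carotid arteries from Poldip2-/- mice, to describe what distinguishes the layers of an artery that lacks Poldip2. The labels list 6 of the 12 samples of the series for this comparison, 4 of the medial layer and 2 of the endothelial layer. The remaining 6 samples are the same layers of control arteries, again 4 medial and 2 endothelial. The study's methods give 4 mice in each group, which the count of endothelial samples in the labels does not match.

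The Poldip2-/- mice were whole-body knockouts. Exon 4 of Poldip2 had been removed by crossing a floxed line, raised from 1 targeted embryonic stem cell clone, with EIIa-Cre mice, in which Cre is active in early embryos. The pups of that cross were mosaic, and a backcross to wild-type mice then removed Cre and mosaicism. Every cell type of both layers therefore carried the deletion. Controls were littermates, and all mice were C57BL/6 animals 10 weeks old. After perfusion with saline, a lysis reagent was flushed through the lumen to collect the endothelial layer. The rest of the vessel, which holds the media and the adventitia, is called the medial layer here, as in the study.

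An artery wall is built from a single sheet of endothelial cells that faces the blood, a media of smooth muscle cells between elastic lamellae, and an adventitia of fibroblasts, nerves, fat and resident macrophages. Endothelial cells release nitric oxide, prostanoids, endothelin and Notch ligands, and smooth muscle cells carry the receptors and the contractile filaments that answer them. POLDIP2 is a protein with roles in the cytoskeleton, in mitochondria and in the oxidase NOX4.

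The values are those the authors gave for each group, in FPKM, read fragments scaled for transcript length and sequencing depth. Each group has 1 pooled value per gene, and columns of single samples could not be tied to groups, so no replicate error is given for any level or ratio below, and no test was made. Ratios are log2 ratios of medial over endothelial FPKM after 1 was added to each value, so a positive ratio is higher in the medial layer. The added 1 understates the ratio of genes with low levels. Genes with a mean of at least 1 FPKM over both layers were compared, which left 12140 of the 35275 genes listed. A gene is called medial-high at a log2 ratio of 1 or more and endothelial-high at -1 or less, a 2-fold difference in either direction. In pooled RNA from tissue, more cells of a type and more RNA per cell cannot be told apart.

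The targeted gene was lower in both layers of Poldip2-/- arteries. Poldip2 (GRCm38 chromosome 11, 78512193 to 78522736, plus strand) stood at 10.3 FPKM in Poldip2-/- medial layers and 8.27 FPKM in Poldip2-/- endothelial layers. Control arteries had 35.9 FPKM in the medial and 21.1 FPKM in the endothelial layer. The Poldip2-/- layers thus held 28.7% of the control level in the medial and 39.2% in the endothelial layer. These values cover the whole gene, so reads from the exons that remain are included. Tmem199, the neighbour on the opposite strand, had 13.3 FPKM in the medial and 14.3 FPKM in the endothelial layer when Poldip2 was deleted. Tnfaip1, the neighbour on the other side, was endothelial-high in both genotypes, with log2 ratios of -1.64 in Poldip2-/- and -1.67 in control arteries.

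The separation of the layers was read from markers. Myh11, the myosin heavy chain of smooth muscle, stood at 729 FPKM in the medial and 2.38 FPKM in the endothelial layer of the knockout. Over the 5 smooth muscle markers that the study chose (Acta2, Tagln, Myh11, Cnn1 and Col1a1), the endothelial layer held between 0.326% (Myh11) and 2.97% (Tagln) of the medial level. Over the 5 endothelial markers (Pecam1, Vwf, Icam2, Nos3 and Cdh5), the medial layer held between 1.54% (Icam2) and 2.62% (Cdh5) of the endothelial level. The study chose these markers to check its own samples, so they are not independent evidence of the separation. In control arteries the corresponding ranges were 0.918% to 10.6% and 2.63% to 5.74%, and both ends of each range were lower in Poldip2-/- arteries, although Tagln went the other way (2.97% in Poldip2-/- and 2.80% in control arteries).

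A wider set of markers gave the same split, with exceptions. It holds all of the study's markers except Col1a1, so it is not independent of them. All 8 smooth muscle markers, all 7 adventitial fibroblast markers and the 3 fat cell markers above 1 FPKM were medial-high. Of 11 endothelial markers, 10 were above 1 FPKM on average over the layers, and 9 of these were endothelial-high. Kdr, the main VEGF receptor of many endothelia, fell below the minimum, at 0.450 FPKM in the medial and 1.21 FPKM in the endothelial layer. Erg, an endothelial transcription factor, had 4.6 FPKM in the medial and 8.96 FPKM in the endothelial layer and missed the call. Of 8 leukocyte markers, 6 were above the minimum and 5 were medial-high, with a summed level of 590 FPKM in the medial and 61.7 FPKM in the endothelial layer. The summed level of 5 red cell and platelet markers was 930 FPKM in the medial and 774 FPKM in the endothelial layer. Mesothelial markers (3) and skeletal muscle markers (5) had no member above the minimum in Poldip2-/- arteries.

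Across all genes, 1712 (14.1%) were medial-high and 1617 (13.3%) were endothelial-high in Poldip2-/- arteries, together 27.4%. These shares are the background against which the counts below are read. The median log2 ratio over all genes compared was -0.12, and 3430 genes (28.3%) lay within 1.2-fold of equal levels. Ratios of 16-fold or more were more frequent towards the medial layer, with 204 genes against 140 towards the endothelial layer. At least 10 FPKM in one layer with under 0.5 FPKM in the other was found for 143 genes of the medial layer and 45 genes of the endothelial layer.

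**Figure D1:**
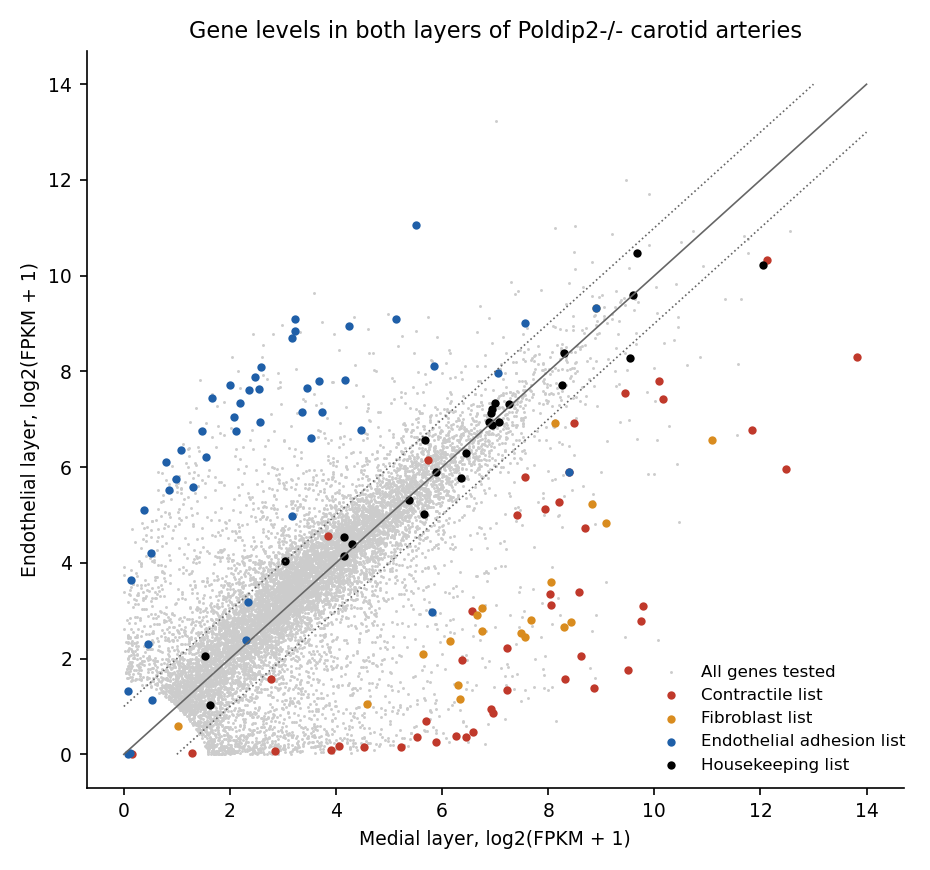
Levels of all genes compared in Poldip2-/- carotid arteries, as log2(FPKM + 1), with the medial layer on the horizontal axis and the endothelial layer on the vertical axis. The solid line marks equal levels and the dotted lines the 2-fold call; of the genes above the minimum, 41 of 43 contractile and 18 of 19 fibroblast genes lie below the lines, 37 of 43 endothelial adhesion genes above them, and 22 of 25 housekeeping genes between them.

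The most abundant messages differed between the layers. These genes were picked by their level after the values were seen. In the medial layer Acta2, smooth muscle actin, came first with 14524 FPKM, and the 10 highest genes took 12.6% of the summed FPKM. The contractile or cytoskeletal genes Acta2, Myl9, Myl6, Actb and Tagln were among these 10. In the endothelial layer the secreted cytokine-like protein Cytl1 came first, at 129 FPKM in the medial and 9685 FPKM in the endothelial layer, and the 10 highest genes took 8.16%. Clu (clusterin), Apoe (apolipoprotein E) and Pecam1 (the junction protein CD31) followed, at 4122, 3359 and 2139.8 FPKM in the endothelial layer. Ferritin heavy chain (Fth1) and thymosin beta 4 (Tmsb4x) were among the 10 highest genes of both layers.

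For protein-coding genes averaging 10 FPKM or more, the 15 largest ratios towards the medial layer lay between 6.52 and 7.75. Contractile and cytoskeletal genes made up a large part of them (Myh11, Cnn1, Tpm2, Actg2, Myl9). Matrix and adhesion genes made up another part, with the microfibril protein Mfap4 at 1077 FPKM in the medial and 4.27 FPKM in the endothelial layer. Postn (periostin) stood at 470 and 2.03 FPKM in the same order of layers, and Itga8, an integrin chain of smooth muscle, at 463 and 1.60 FPKM. Fmod (fibromodulin), Nov (a CCN family matricellular protein), Serpine2 (an inhibitor of thrombin), Dmpk, Rcan2, Rasl12 and Susd5 completed the 15. Susd5, a gene with little described function, was present at 283 FPKM in the medial and 0.617 FPKM in the endothelial layer.

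The 15 largest ratios towards the endothelial layer lay between -5.71 and -6.38. Nt5e, the ectoenzyme CD73 that makes adenosine, came first with 1.71 FPKM in the medial and 225 FPKM in the endothelial layer. Thbs1 (thrombospondin 1) stood at 4.42 FPKM in the medial and 441 FPKM in the endothelial layer. The growth factor Bmp6 stood at 11 FPKM in the medial and 794 FPKM in the endothelial layer. The tyrosine kinase Bmx, the connexin Gja5, the adhesion molecules Icam2 and Selp, the endothelial membrane protein Ecscr, the kinase Pkn3 and Cytl1 were also among the 15. The 15 further held the kallikrein Klk10 (5.99 and 437 FPKM in the medial and endothelial layer), the gastrokine Gkn3 (3.43 and 256 FPKM), Cd24a and AU021092. All 30 genes of these rankings were called in the same direction in control arteries.

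Genes of the contractile apparatus were nearly all medial-high. Actin and myosin filaments slide in smooth muscle under control of calcium, calmodulin and the kinase that phosphorylates the myosin light chain. Of 45 genes listed, 43 were above the minimum, 41 were medial-high and none was endothelial-high, with a median log2 ratio of 4.94. The list took 9.45% of all FPKM in the medial and 0.754% in the endothelial layer. Filament genes stood highest. The light chain Myl9 had 5752 FPKM in the medial and 61.5 FPKM in the endothelial layer, and Tagln, the actin-binding protein SM22, had 3675 and 109 FPKM. Mylk, the light chain kinase, had 148 FPKM in the medial and 3.68 FPKM in the endothelial layer. Sorbs2, an adaptor protein of adhesion sites, was not called, with a log2 ratio of -0.70.

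The light chain Myl9 and the Z-line protein Ldb3 carry the motif named CArG box, which the serum response factor binds, in the bases just upstream of their starts. They are shown because both belong to the contractile list and were the only members, of those with a promoter window, to hold this motif. Only the exact form CCWWWWWWGG was searched, where W is A or T, so looser boxes and boxes outside the window were not counted. Tagln, Cnn1 and Myh11 had no window. The capitals mark the CArG box.
Myl9 (chr2:156775214-156775419, plus strand): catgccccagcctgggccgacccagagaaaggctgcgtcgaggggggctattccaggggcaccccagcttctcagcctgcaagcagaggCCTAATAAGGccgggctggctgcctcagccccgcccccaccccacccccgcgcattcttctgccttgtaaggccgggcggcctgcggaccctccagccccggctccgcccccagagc
Ldb3 (chr14:34588682-34588931, minus strand): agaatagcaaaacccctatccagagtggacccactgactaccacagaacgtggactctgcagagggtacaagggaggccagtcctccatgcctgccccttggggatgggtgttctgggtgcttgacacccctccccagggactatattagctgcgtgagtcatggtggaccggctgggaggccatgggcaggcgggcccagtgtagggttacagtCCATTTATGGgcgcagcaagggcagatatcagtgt
Both sequences are from RefSeq on GRCm38.p6 and end before the gene's start in the deposited table. The box lies 161 bases before the RefSeq start of Myl9 and 35 bases before that of Ldb3. Of the 45 contractile genes, 38 had a promoter window of 300 bases in the RefSeq table, and 2 of these (5.26%) held a CArG box on either strand, against 425 of all 27025 windows (1.57%). Ldb3 itself stood at 45.1 FPKM in the medial and 0.292 FPKM in the endothelial layer. Over all medial-high genes only 68.3% had a window, so a comparison of motif shares for the called genes is void.

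Transcription factors of smooth muscle were split between the layers. Of 28 members above the minimum, 16 were medial-high and 6 endothelial-high, with a median of 1.46. Srf, the factor that binds the CArG box, stood at 13.7 FPKM in the medial and 3.60 FPKM in the endothelial layer, a log2 ratio of 1.68. Its coactivators went different ways, since Mrtfa had a log2 ratio of 1.22 and Mrtfb one of -2.94. Myocd, a further coactivator and a member of the 8 smooth muscle markers, was medial-high. The notch effector Heyl (98.7 and 1.73 FPKM in the medial and endothelial layer) had the largest ratio of the list, and Isl1 (0.553 and 45.2 FPKM) the lowest. Gata6, Hey2 and Klf4, often named for their part in smooth muscle, were endothelial-high, with log2 ratios of -1.43, -1.55 and -1.16.

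Genes of channels and calcium handling were found on both sides. Of 26 genes above the minimum, 13 were medial-high and 7 endothelial-high, with a median of 0.89. Several potassium channel genes of smooth muscle were medial-high, with Kcnmb1, the beta subunit of the large-conductance channel, at 94.7 FPKM in the medial and 0.388 FPKM in the endothelial layer. Its pore subunit Kcnma1 stood at 18.4 and 0.0233 FPKM, and the KATP channel genes Kcnj8 and Abcc9 had log2 ratios of 4.95 and 4.70. The endothelial side held Kcnn4, the intermediate-conductance channel of endothelial hyperpolarization, at 1.68 FPKM in the medial and 79.7 FPKM in the endothelial layer. Trpv4 (log2 ratio -3.94), Itpr3 (-2.94), Piezo1 (-2.24) and Orai1 (-2.22), which admit or release calcium, were on that side too. Cacna1c, the pore of the L-type calcium channel, was medial-high but low, at 2.35 FPKM in the medial and 0.0523 FPKM in the endothelial layer.

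**Figure D2:**
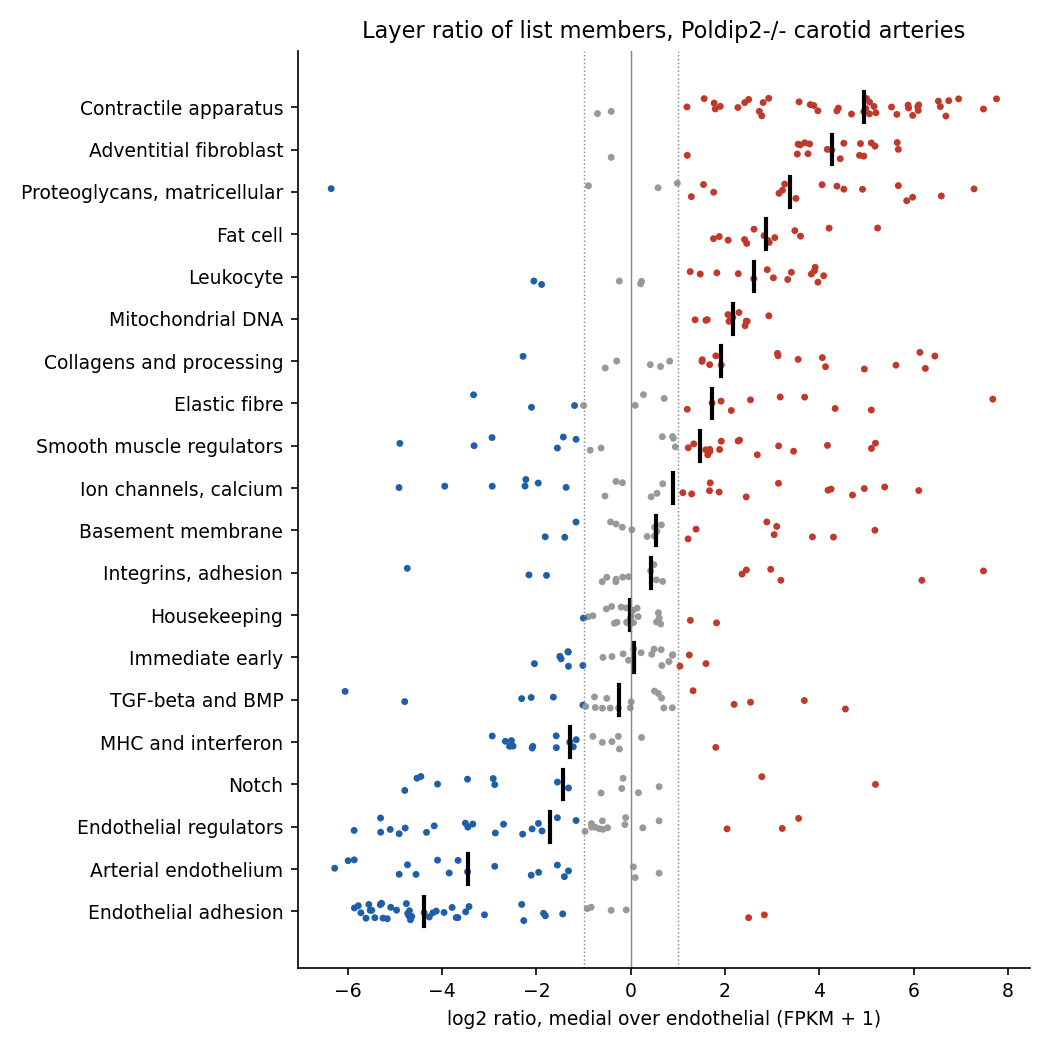
Log2 ratios of medial over endothelial FPKM for the members of 20 gene lists in Poldip2-/- carotid arteries, 1 point per gene above the minimum. Black bars are list medians and dotted lines the 2-fold call, with medial-high genes in red and endothelial-high genes in blue; medians run between 4.94 for the contractile apparatus and -4.38 for endothelial adhesion.

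The medial layer also held the adventitia, and genes of its cell types were mostly medial-high except those of nerve. Of 7 Schwann cell and nerve genes above the minimum, 2 were medial-high and 1 endothelial-high, and 11 were under the minimum. Of 19 fibroblast genes above the minimum, 18 were medial-high, with a median of 4.26. Dcn (decorin) stood at 2164 FPKM in the medial and 93.4 FPKM in the endothelial layer, Lum (lumican) at 346 and 5.8 FPKM, and Pdgfra, a surface marker of fibroblasts, at 22.9 and 1.07 FPKM. Ly6a, the antigen Sca-1, was the member with a ratio below 0, at 477 FPKM in the medial and 636 FPKM in the endothelial layer. All 14 fat cell genes above the minimum were medial-high (median 2.87), among them the brown fat genes Ucp1 and Cidea with log2 ratios of 3.48 and 4.21. Of 19 leukocyte genes, 14 were medial-high, led by the complement genes C1qa, C1qb and C1qc of resident macrophages with ratios between 3.91 and 4.09. The neutrophil genes S100a8 and S100a9 were endothelial-high, at 1.59 and 8.60 FPKM and at 0.877 and 6.78 FPKM in the medial and endothelial layer.

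Matrix genes were mostly higher in the medial layer, with named exceptions. Of 21 collagen and collagen-processing genes above the minimum, 15 were medial-high and 1 was endothelial-high (Col8a1, log2 ratio -2.28). The fibrillar chains Col3a1 (1417 and 27.8 FPKM in the medial and endothelial layer) and Col1a1 (455 and 5.0 FPKM) had log2 ratios of 5.62 and 6.25. Of 20 proteoglycan and matricellular genes, 16 were medial-high and only Thbs1 was endothelial-high. Of 17 elastic fibre genes, 10 were medial-high and 3 endothelial-high. Elastin itself was abundant in both, with Eln at 1937 FPKM in the medial and 1184 FPKM in the endothelial layer, a log2 ratio of 0.71. Fbln2 (fibulin 2) had the ratio furthest towards the endothelial layer, at 44.7 and 459 FPKM.

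Basement membrane genes were less divided than fibrillar ones. Of 20 members above the minimum, 8 were medial-high and 3 endothelial-high, with a median of 0.53. The 6 collagen IV chains form known pairs, and not every pair was called together. Col4a5 and Col4a6 were medial-high, with log2 ratios of 3.85 and 5.18, and Col4a3 and Col4a4 were endothelial-high, with -1.81 and -1.16. Col4a1, at 187 FPKM in the medial and 131 FPKM in the endothelial layer, missed the call, and its partner Col4a2 was medial-high, at 98.9 and 37.2 FPKM. Col18a1, the source of endostatin, stood at 509 FPKM in the medial and 58.7 FPKM in the endothelial layer. Hspg2 (perlecan) was close to equal, at 18.9 and 21.5 FPKM.

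Integrin genes were called in both directions. Itga8 and Itga7, alpha chains of smooth muscle, had log2 ratios of 7.48 and 6.17, and Itgb3 and Itgb5 had 3.18 and 2.45. Itgb4, which anchors epithelia to laminin, was endothelial-high at 1.54 FPKM in the medial and 66.8 FPKM in the endothelial layer, and Itga6, its partner, had a log2 ratio of -1.78. The common beta chain Itgb1 was equal, at 529 and 546 FPKM. In all, 6 of 19 members above the minimum were medial-high, 3 were endothelial-high and 10 were not called. Over all genes the shares were 14.1% medial-high and 13.3% endothelial-high.

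The endothelial layer was marked by junction and adhesion genes. Endothelial cells bind each other through cadherin 5, claudin 5 and CD31, and bind blood cells through selectins and immunoglobulin-like receptors. Of 43 members above the minimum, 37 were endothelial-high and 2 medial-high (Mcam and Jam3), with a median of -4.38. Vwf, the von Willebrand factor that captures platelets, stood at 8.37 FPKM in the medial and 457 FPKM in the endothelial layer. Cdh5, the cadherin of endothelial junctions, had 1.93 and 73.5 FPKM, and Cldn5, its claudin, 4.91 and 122 FPKM. Leukocyte receptors were among them, with Vcam1 at 17.9 and 493 FPKM, Icam1 at 9.94 and 199 FPKM and Selp at 2.17 and 173 FPKM in the medial and endothelial layer. Mcam (CD146), found on both cell types and also in the contractile list, stood at 337 and 58.7 FPKM, and Jam3 at 55.0 and 6.86 FPKM.

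Regulators of endothelial identity followed. Of 34 members above the minimum, 19 were endothelial-high and 3 medial-high, with a median of -1.72. The SOX factors Sox17, Sox18 and Sox7 had log2 ratios of -4.91, -5.30 and -4.78. Lmo2, an adaptor of GATA and SCL complexes, stood at 12.2 FPKM in the medial and 521 FPKM in the endothelial layer, and Gata2 at 2.41 and 116 FPKM. The flow-responsive factor Klf2 had 36.7 and 427 FPKM. Ets1, Foxo1, Tcf4 and Ets2, which many cell types use, had ratios between -0.49 and 0.26. Nr2f2, the factor of venous fate, was medial-high at 13 and 0.188 FPKM, together with Meox2 and Aff3.

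The endothelium carried arterial genes. Of 19 members of the arterial list above the minimum, 16 were endothelial-high and none was medial-high (median -3.46), led by Bmx, Gja5 and Gkn3. Among venous and lymphatic genes, Lyve1, Pdpn, Ccl21a and Nr2f2 were medial-high, and Ephb4, Flt4, Vcam1 and Selp were endothelial-high. Prox1, the defining factor of lymphatic endothelium, was at 0.0157 FPKM in the medial and 0.0111 FPKM in the endothelial layer. Genes of capillary endothelium and of lipid uptake were medial-high in 6 of 10 members above the minimum, among them Lpl, Fabp4 and Cd36, which fat cells also use.

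The connexin Gja5 and the abundant Cytl1 are shown as the upstream sequences of a pair of endothelial-high genes. The capitals mark AGGAAG on either strand (CTTCCT on the strand shown), a core that ETS factors bind.
Gja5 (chr3:97032152-97032401, plus strand): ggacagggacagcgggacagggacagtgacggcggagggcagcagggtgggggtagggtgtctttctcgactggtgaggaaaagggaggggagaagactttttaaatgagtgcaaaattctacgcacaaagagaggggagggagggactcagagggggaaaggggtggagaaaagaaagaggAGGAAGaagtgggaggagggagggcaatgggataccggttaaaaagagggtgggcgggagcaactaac
Cytl1 (chr5:37735269-37735518, plus strand): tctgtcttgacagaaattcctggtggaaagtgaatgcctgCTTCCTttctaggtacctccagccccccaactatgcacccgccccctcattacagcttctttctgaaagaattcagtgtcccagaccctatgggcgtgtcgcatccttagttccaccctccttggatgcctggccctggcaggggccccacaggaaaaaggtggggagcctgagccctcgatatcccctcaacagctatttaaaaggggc
The sequences come from RefSeq on GRCm38.p6, and the genes were chosen after the motif search. The motif is common, as 35.1% of all 27025 windows of 300 bases held it. Of the endothelial adhesion genes 63.8% had a window in the table, so no share is compared for them.

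Genes of signalling pathways were found on both sides. In the nitric oxide pathway, Nos3, the endothelial synthase, stood at 1.77 FPKM in the medial and 107 FPKM in the endothelial layer. Both subunits of its receptor, soluble guanylate cyclase, lay on the other side, with Gucy1a1 at 68.3 and 0.928 FPKM and Gucy1b1 at 53.9 and 0.676 FPKM. The targets of cyclic GMP were medial-high as well, with log2 ratios of 3.22 for the phosphodiesterase Pde5a, 1.34 for the kinase Prkg1 and 5.64 for its substrate Mrvi1. Gch1, which makes the cofactor of the synthase, and Ddah1, which removes its inhibitor, were endothelial-high, with -2.95 and -2.93. In all, 6 of 16 members above the minimum were called in each direction, and Nos1 and Nos2 were under the minimum.

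In the endothelin pathway Edn1, the vasoconstrictor endothelin 1, stood at 6.54 FPKM in the medial and 199 FPKM in the endothelial layer, and Ece1, the enzyme that activates it, at 30.8 and 587 FPKM. Its receptor Ednra had 6.73 and 0.133 FPKM, and Ednrb 3.56 and 0.308 FPKM. Ace, the angiotensin-converting enzyme, was endothelial-high at 59.2 and 422 FPKM, while the angiotensin receptor Agtr1a was under the minimum, at 1.55 and 0.0469 FPKM. Ptgs1, the cyclooxygenase that starts prostanoid synthesis, had 10.9 FPKM in the medial and 183 FPKM in the endothelial layer. The next enzyme on the way to prostacyclin, Ptgis, was medial-high at 467 and 208 FPKM, and the prostacyclin receptor Ptgir at 2.98 and 0.0970 FPKM. The thromboxane receptor Tbxa2r was medial-high with a log2 ratio of 4.55. The transporter Slco2a1, which clears prostaglandins, was endothelial-high (log2 ratio -4.97), and so was the receptor Ptger4 (-4.49).

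Notch ligands were endothelial. Notch receptors are cut when a ligand on a neighbouring cell binds them, which links the endothelium to the muscle beneath it. Dll1 stood at 1.31 FPKM in the medial and 62.9 FPKM in the endothelial layer, Dll4 at 0.338 and 8.86 FPKM and Jag1 at 10.0 and 26.4 FPKM. The receptors differed by member. Notch1 (1.47 and 26.2 FPKM in the medial and endothelial layer) and Notch4 (0.822 and 30.1 FPKM) were endothelial-high, Notch3 (6.23 and 0.0535 FPKM) was medial-high, and Notch2 was near equal (6.36 and 7.40 FPKM). The fringe genes Mfng and Lfng, which modify the receptors, were endothelial-high with ratios of -4.45 and -2.92. Of the 16 members above the minimum, 9 were endothelial-high and 2 medial-high.

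**Figure D3:**
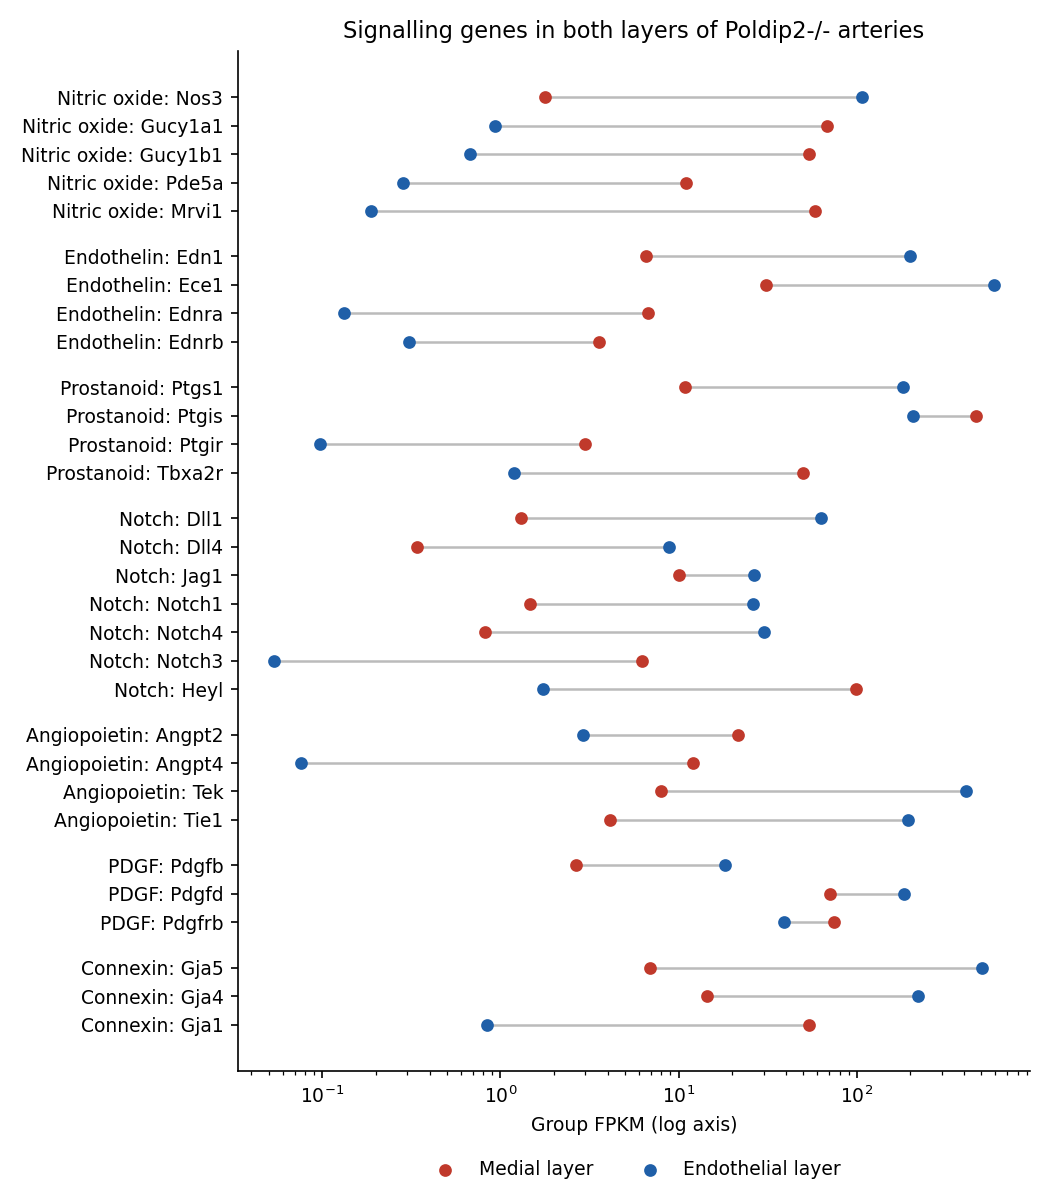
Group FPKM in the medial layer (red) and the endothelial layer (blue) of Poldip2-/- carotid arteries for 30 signalling genes, on a log axis. Nos3, Edn1, Dll1, Gja5 and the receptors Tek, Notch1 and Notch4 are higher in the endothelial layer, and Gucy1a1, Ednra, Notch3, Gja1, the synthase Ptgis and the ligand Angpt2 are higher in the medial layer.

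Growth factor pathways ran in both directions. The angiopoietin receptors Tek (8.0 FPKM in the medial and 413 FPKM in the endothelial layer) and Tie1 (4.13 and 195 FPKM) were endothelial-high, and the ligands Angpt2 and Angpt4 were medial-high at 21.7 and 2.91 FPKM and at 12 and 0.0763 FPKM. Angpt1, the main activating ligand, was not called, at 0.854 and 2.42 FPKM. Among VEGF genes, Vegfd and Vegfb were medial-high, Vegfc and the coreceptor Nrp1 endothelial-high, and Vegfa (8.72 and 14.5 FPKM) was not called. Pdgfb and Pdgfd were endothelial-high, at 2.65 and 18.3 FPKM and at 70.9 and 185 FPKM. Their receptor Pdgfrb had a log2 ratio of 0.92 and fell short of the call, with 74.5 FPKM in the medial and 39.0 FPKM in the endothelial layer. In the TGF-beta family, Bmp6 and Bmp4 were endothelial-high (-6.05 and -4.79), and Tgfb3 and the latency protein Ltbp1 were medial-high (3.68 and 4.55). Most of this list was not called, with 14 of 25 members above the minimum under the fold, 5 medial-high and 6 endothelial-high.

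Gap junctions and caveolae showed a division within gene families. The connexins Gja5 and Gja4 stood at 6.94 and 504 FPKM and at 14.4 and 220 FPKM in the medial and endothelial layer. Gja1 was medial-high at 54.2 and 0.843 FPKM, and Gjc1 was near equal at 21.3 and 16.9 FPKM. Caveolae, the pits of the cell membrane, are built from caveolins and cavins. Cav1 and Cav2 were endothelial-high, with log2 ratios of -1.67 and -2.17 and with Cav1 at 592 and 1879 FPKM, and Cav3, the muscle caveolin, was medial-high at 30.6 and 0.208 FPKM. Cavin1, which every caveola needs, was near equal at 237 and 222 FPKM, and Cavin2 was endothelial-high at 33.9 and 557 FPKM.

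Genes of clotting and of vessel tone were split by layer. Thbd (thrombomodulin) and Procr, which activate protein C, were endothelial-high with log2 ratios of -2.27 and -3.66, as were the protease-activated receptors F2r (-2.33) and F2rl1 (-4.22). F3, the tissue factor that starts clotting, was medial-high at 151 FPKM in the medial and 2.52 FPKM in the endothelial layer. Of 18 receptors for vasoactive agents above the minimum, 8 were medial-high, among them the adrenergic receptors Adra1d and Adra1b with 3.70 and 2.41. Another 5 were endothelial-high, among them the purine receptor P2ry1 (-2.87), the adrenergic receptor Adra2a (-3.85) and Calcrl with its partner Ramp2 (-3.15 and -3.40).

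Genes shared by all cells stayed near equal. Of 25 housekeeping genes, 2 were medial-high (Actb and Gapdh) and 1 endothelial-high (Polr2a), with a median of -0.01. By contrast all 11 genes of mitochondrial DNA above the minimum were medial-high, with a median of 2.16. For mt-Cytb, the values were 1564 FPKM in the medial and 282 FPKM in the endothelial layer. Reads of these genes may be shared with copies in the nuclear genome. Genes of antigen presentation and of the interferon response lay on the other side, with 12 of 19 endothelial-high, 1 medial-high and a median of -1.29. H2-D1 stood at 362 and 2092 FPKM and H2-K1 at 157 and 935 FPKM in the medial and endothelial layer, with the caution that class I genes are near copies of each other.

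Immediate early genes, which respond within minutes to handling, did not move as 1 group. Of 23 above the minimum, 3 were medial-high and 7 endothelial-high, with a median of 0.06. Fos was medial-high, at 59.7 FPKM in the medial and 24.7 FPKM in the endothelial layer, and Jun was endothelial-high, at 41.5 and 106 FPKM. Chemokine genes were divided, with 7 of 14 medial-high, led by Ccl11, and 6 endothelial-high, led by Cxcl1 at 1.33 and 57.8 FPKM. Nox4, an oxidase that POLDIP2 can activate, was medial-high at 107 and 3.05 FPKM, and Cyba, which encodes the p22phox subunit that POLDIP2 binds, was near equal at 139 and 120 FPKM. Among intergenic noncoding RNAs with a mean of at least 10 FPKM, picked after the values were seen, Mir143hg stood at 146 FPKM in the medial and 1.72 FPKM in the endothelial layer.

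The layer ratios of Poldip2-/- arteries were then set beside those of control arteries. Over 11763 genes above the minimum in both genotypes, the ratios had a Pearson r of 0.83 and a Spearman rho of 0.71, as a description across genes, which are not independent replicates. Of these genes, 1150 (9.78%) were medial-high in both, which is 75% of those called in Poldip2-/- and 66.4% of those called in control arteries. Another 1030 (8.76%) were endothelial-high in both, 64.9% of the Poldip2-/- calls and 64.3% of the control calls. Only 19 genes (0.162%) were called in opposite directions. In control arteries alone, 2704 of 13354 genes (20.2%) were medial-high and 1613 (12.1%) endothelial-high, together 32.3%. Medial-high genes were thus 62.6% of the control calls, against 43.1% on the scaled group means of read counts. The median ratio was -0.12 in Poldip2-/- and 0.10 in control arteries. On the scaled means it moved by 0.07 in Poldip2-/- and by -0.39 in control arteries. It then stood at -0.04 in Poldip2-/- and -0.30 in control arteries, so the order of the genotypes turned over.

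Smooth muscle genes stood further apart between the layers in Poldip2-/- arteries. The median ratio of the contractile list was 4.94 in Poldip2-/- and 2.28 in control arteries, and the median difference between the genotypes over its members was 1.99. Basement membrane genes had medians of 0.53 and -0.30, and integrins 0.42 and -1.02, in Poldip2-/- and control arteries. Each list median covers the genes above the minimum in that genotype. Over the members above the minimum in both genotypes, the median differences were 1.81 for basement membrane genes and 1.64 for integrins. For 1 member taken from each of these lists after the values were seen, the medial levels lay further apart between the genotypes than the endothelial levels. Mylk stood at 148 FPKM in the Poldip2-/- and 20.1 FPKM in the control medial layer, against 3.68 and 3.45 FPKM in the endothelial layers. Itga8 stood at 463 FPKM in the Poldip2-/- and 55.4 FPKM in the control medial layer, against 1.60 and 0.732 FPKM in the endothelial layers. Col18a1 stood at 509 FPKM in the Poldip2-/- and 57.2 FPKM in the control medial layer, against 58.7 and 70.5 FPKM in the endothelial layers. Genes of mitochondrial DNA had medians of 2.16 in Poldip2-/- and 0.51 in control arteries, and their share of all FPKM in the endothelial layer was 0.220% in Poldip2-/- and 0.789% in control arteries.

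Fat cell genes, leukocyte genes and antigen presentation and interferon genes leaned less to the medial layer in Poldip2-/- arteries, while fibroblast and arterial genes differed little. The medians were 2.87 in Poldip2-/- and 4.00 in control arteries for fat cell genes, 2.61 and 3.29 for leukocyte genes, and -1.29 and -0.29 for antigen presentation and interferon genes. Fibroblast genes had medians of 4.26 in Poldip2-/- and 4.12 in control arteries, and the median difference over their members was 0.02 from FPKM, 0.69 from the scaled means and 0.44 when centred within bins of gene length. Endothelial adhesion genes had medians of -4.38 and -3.76 and arterial genes -3.46 and -3.49. The median difference of the arterial genes turned over with the scale, at -0.13 from FPKM and 0.12 from the scaled means. The other lists named here kept the sign of theirs, but not always the size: that of antigen presentation and interferon genes was -1.16 from FPKM and -0.63 from the scaled means, and that of leukocyte genes -1.47 from FPKM and -0.96 within bins of gene length. None of these differences between genotypes was tested, since only the pooled value of each group was used.

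The shares of the medial FPKM that the lists took differed between the genotypes as well. They come from the same group values and lists as the ratios, so they are not separate evidence. Contractile genes took 9.45% of the medial FPKM in Poldip2-/- and 2.48% in control arteries. Fibroblast genes took 1.45% and 3.68%, leukocyte genes 0.326% and 1.19% and fat cell genes 0.219% and 0.694% of the medial FPKM in Poldip2-/- and control arteries. In the endothelial layer the adhesion list took 2.59% in Poldip2-/- and 2.79% in control arteries. The number of genes at 1 FPKM or more was 12054 in the Poldip2-/- and 14805 in the control medial layer, against 11373 and 11628 in the endothelial layers. The part of these shares in the differences between genotypes was not tested.

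**Figure D4:**
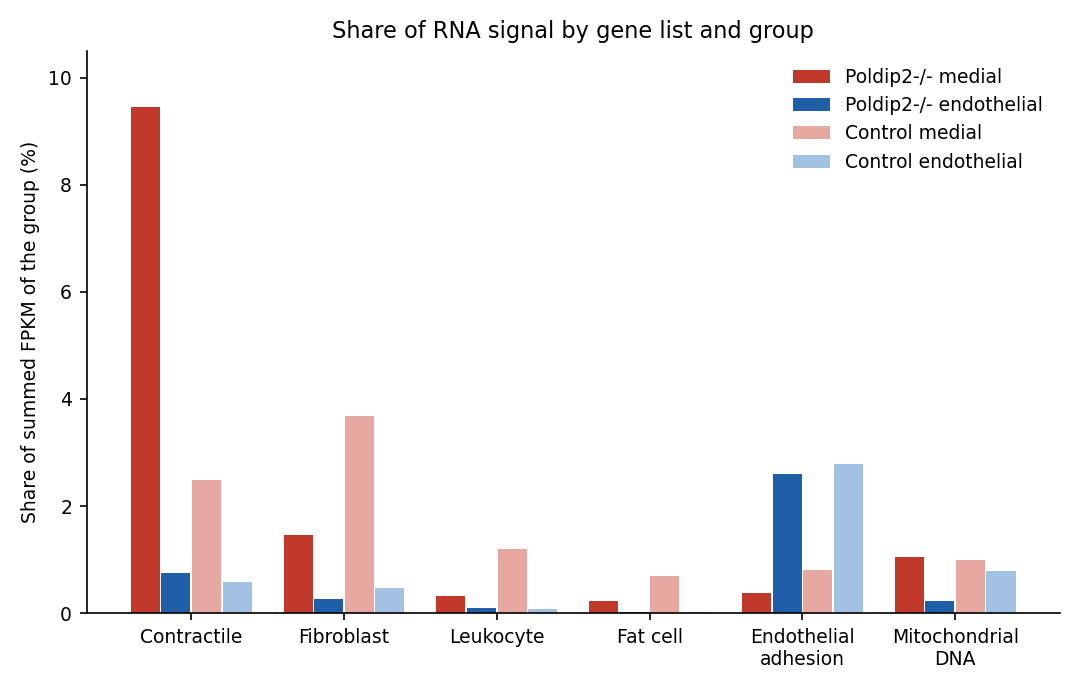
Share of the summed FPKM of each group, in percent, taken by 6 gene lists, with 1 bar for each of the 4 groups. The contractile list took 9.45% in Poldip2-/- and 2.48% in control medial layers, and the endothelial adhesion list 2.59% and 2.79% in the endothelial layers.

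Single genes with the largest difference of layer ratio between genotypes were long or short. For 5981 protein-coding genes averaging 10 FPKM or more over the 4 groups, the 10 with the ratio most shifted towards the medial layer in Poldip2-/- arteries were Cspg4, Lgr6, Ncam1, Col18a1, Scube3, Pcdh7, Map1b, Lama5, Myom1 and Lpp. Their differences lay between 3.22 and 3.63 on the log2 scale, and their lengths between 3629 and 15647 bases. Cspg4, the mural cell proteoglycan NG2, had 76.0 FPKM in medial and 0.307 FPKM in endothelial layers of Poldip2-/- arteries, against 4.86 and 0.234 FPKM in control arteries. Lgr6, a receptor of R-spondins, stood at 69.1 and 0.200 FPKM in Poldip2-/- arteries, against 5.90 and 0.274 FPKM in control arteries. For both genes the medial levels lay further apart between the genotypes than the endothelial levels.

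The 10 genes most shifted the other way were between 463 and 1922 bases long. G0s2, an inhibitor of fat breakdown, had 16 FPKM in medial and 12.8 FPKM in endothelial layers of Poldip2-/- arteries, against 73.9 and 1.83 FPKM in control arteries. Thrsp and Retn, genes of fat cells, had log2 ratios of 3.09 and 1.88 in Poldip2-/- and 6.07 and 4.89 in control arteries. The interferon-induced Ifi27l2a stood at 153 and 43.1 FPKM in Poldip2-/- arteries, against 1700.5 and 51.8 FPKM in control arteries. Ybx3, a cold shock domain protein, and the tubulin Tubb2b were endothelial-high in Poldip2-/- arteries only by this call (-2.50 and -2.24), against 0.61 and 0.66 in control arteries. The predicted genes Gm10800, Gm10801 and Gm21738 and AW112010 completed the 10, and the values of near-identical predicted genes are uncertain.

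Gene length moved with the layer ratio, more so in control arteries. Over the genes above the minimum in both genotypes, the median ratio of genes of 500 to 1000 bases was 0.24 in Poldip2-/- and 0.69 in control arteries. For genes over 8000 bases it was -0.05 in Poldip2-/- and -0.63 in control arteries. The span between these classes was thus smaller in Poldip2-/- arteries. Over the 5981 genes ranked above, the difference of ratio between genotypes had a Spearman rho of 0.39 with gene length. Lists differed in length too, with medians of 6575.5 bases for basement membrane, 5784 for integrin, 2989 for contractile and 957 for mitochondrial DNA genes. The medians were 1230 bases for leukocyte, 1773.5 for fat cell and 1745 for antigen presentation and interferon genes. The part of length was not tested. When the differences between genotypes were centred within 20 bins of gene length, a choice made after seeing the data, those of the 10 genes shifted towards the medial layer lay between 2.71 and 3.58, and those of the 10 shifted the other way between -5.46 and -2.23.

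**Figure D5:**
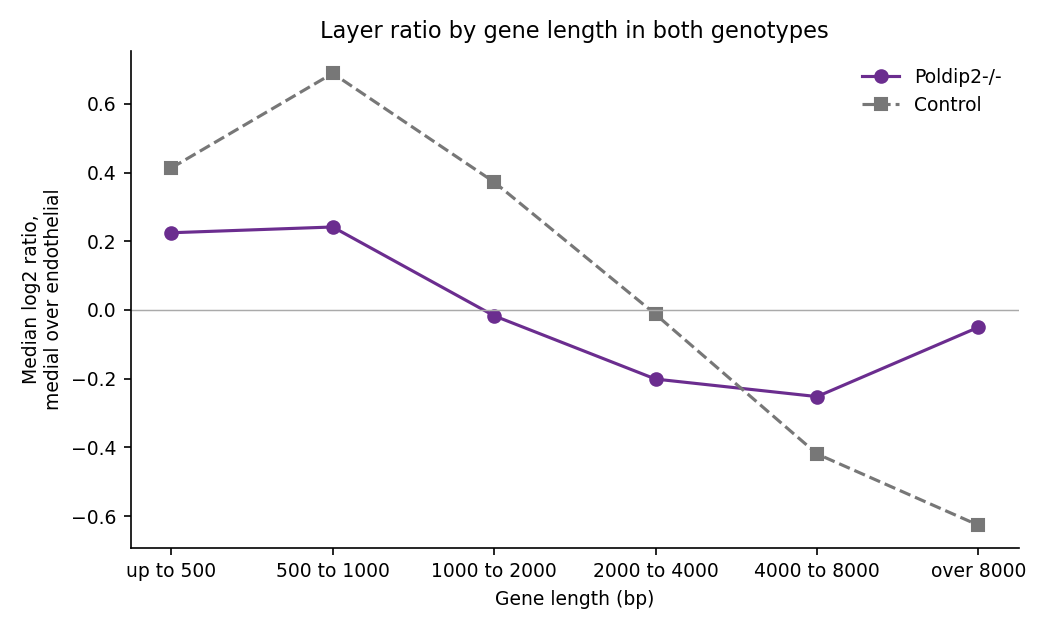
Median log2 ratio of medial over endothelial FPKM in 6 classes of gene length (bases, horizontal axis) for Poldip2-/- arteries (circles, solid line) and control arteries (squares, dashed line), over the genes above 1 FPKM on average in both. The control medians run between 0.69 and -0.63, the Poldip2-/- medians between 0.24 and -0.25.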

How the data were processed

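RNA from the medial and endothelial layers was sequenced after poly-T selection of 50 ng total RNA, with a library kit that does not mark strand, so genes that overlap on opposite strands cannot be told apart. The authors used TopHat to align read pairs, to mm9 by their methods, and deposited gene levels in FPKM. How replicates were combined into a group value is not stated. STAR 2.5, HTSeq 0.6.1, edgeR 3.16.5, DESeq2 and STAR-Fusion are named in the submitters' processing notes with no role given. The authors also deposited group means of read counts scaled for depth, a signal used here only as an alternative scale. The deposited coordinates fit GRCm38, since of 34490 gene IDs found in GENCODE M21 72.2% have identical coordinates.

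Columns for individual animals (24) carry numbers that the labels do not tie to genotypes and were not used, so the depth of each library, replicate error and precision are unknown. The authors' fold changes, p-values and adjusted p-values were not used either. Ratios, calls and shares were computed from group FPKM with a pseudocount of 1, a minimum mean of 1 FPKM and a 2-fold call. Of 796 distinct genes in 45 lists, 794 were matched by symbol. The members and lists were chosen with earlier results of these data known.

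Genes are named by rule: the study's markers and the Poldip2 locus, up to 6 members of a list with the largest ratio in each direction and members called against their list's layer, all members of the short signalling lists, the 15 largest ratios in each direction at a mean of at least 10 FPKM, and the 10 largest differences between genotypes in each direction. Other genes named, chosen for their role or level, were picked after their values were seen, and some genes that the rule names are not reported here. Alternatives were a pseudocount of 0.1, no minimum or 5 FPKM, a 4-fold call, centring on the median or within 20 length bins, protein-coding genes only, and the scaled means; those applied to differences between genotypes were chosen after seeing the data. Computations used pandas 2.3.3, numpy 2.4.6 and matplotlib 3.10.9 under Python 3.11.15 and were tested on simulated data.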

Additional observations from a re-analysis of the deposited data

Results flagged for a closer look

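The layer ratio of 5 named genes was called in opposite directions in the genotypes, and the difference was not tested. Col4a2, a basement membrane collagen chain, had a log2 ratio of 1.39 in Poldip2-/- arteries and -1.62 in control arteries. Ncam1, a neural cell adhesion molecule, had 1.91 and -1.51, and the calcium pump gene Atp2b4 had 1.11 and -1.43, in the same order. The endothelial levels of Ncam1 were 14.2 FPKM in Poldip2-/- and 14.4 FPKM in control arteries, and its medial levels 56.3 and 4.43 FPKM. The predicted genes Gm10800 and Gm10801 went the other way, with -4.07 and -2.25 in Poldip2-/- arteries and 1.96 and 1.54 in control arteries. Gm10800 stood at 2.30 FPKM in the Poldip2-/- medial layer and at 1171 FPKM in the control medial layer.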

How the results depend on the processing

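In Poldip2-/- arteries the counts of medial-high and endothelial-high genes stayed within 1.5 times under 0.1 as pseudocount, no minimum, protein-coding genes only, both centrings and the scaled group means. A minimum of 5 FPKM gave 1016 medial-high genes, and a 4-fold call gave 841 medial-high and 626 endothelial-high genes, as fewer genes can pass either. In control arteries the 4-fold call gave 876 medial-high and 514 endothelial-high genes. The scaled group means gave 3354 endothelial-high genes there, and medial-high genes were then 43.1% of the control calls in place of 62.6%; the cause was not tested. The median of the chemokine list turned to -1.97 at a minimum of 5 FPKM. Of 617 named or listed genes, 595 kept their side of the call under the scaled means and 596 under length bins, and none that was called changed direction under any alternative. Without the genes of mitochondrial DNA the contractile share of the medial layer was 9.55%. Of 40 median differences of lists between genotypes, 12 crossed a size of 1 on the log2 scale under the scaled means and 7 under length bins, and none of at least that size changed sign. Several smaller differences did change sign under the scaled means. Among them were the prostanoid list (-0.78 from FPKM and 0.21 from the scaled means) and the capillary and lipid uptake list (-0.41 and 0.50). No paired analysis was possible because the labels do not tie the columns of single animals to groups, so only the pooled value of each group was used, and for the same reason no replicate was left out.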
